A study of Mus musculus with 10 samples.

Results

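Thrombospondins and the other matricellular proteins are secreted into the extracellular matrix, where they adjust how cells attach, migrate and respond to growth factors more than they bear load. In arteries they are made by smooth muscle cells, adventitial fibroblasts and endothelial cells, and several are known to rise after vascular injury. Thrombospondin-1 and thrombospondin-2 are trimers that bind the receptors CD36 and CD47, and thrombospondin-1 also releases active TGF-beta from its latent complex. Thrombospondin-3, thrombospondin-4 and cartilage oligomeric matrix protein (COMP) are pentamers of the same family.

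The set was defined by name as 10 genes: the thrombospondin genes Thbs1, Thbs2, Thbs3 and Thbs4, Comp, the receptor gene Cd47, and the matricellular genes Sparc, Postn, Tnc and Spp1. Every probe set whose platform annotation gave exactly 1 of these symbols was taken. That rule found 9 of the 10 genes, among 18193 genes named on the array, with 19 probe sets; Spp1 (osteopontin) was not analysed here. Of the 19 probe sets, 18 had a log2 value over 4 on at least 4 arrays, the floor set for testing, and each of the 9 genes kept at least 1 of them. Thbs3, Thbs4, Comp and Postn were each measured by 1 probe set. A gene was represented by its brightest tested probe set.

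Total RNA of whole aorta from male C57BL/6 mice was hybridised to 1-colour Affymetrix arrays, 1 array per sample. Wild type mice were compared with Ptgds-/- mice, which lack lipocalin-type prostaglandin D synthase, an enzyme that makes prostaglandin D2. All mice were group-housed on chow, and the labels list no treatment; they give no age, and do not say how the allele was made or in which cells it acts. Of 5 wild type and 5 Ptgds-/- samples, wild type replicate 2 is labelled as excluded and has no values, which left 4 against 5 arrays.

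The smooth muscle genes Acta2 and Myh11 lay between 13.67 and 13.98 on all 9 arrays, as the tissue label requires. Ptgds lay at 8.68 to 10.31 on the wild type arrays and at 3.67 to 4.403 on the Ptgds-/- arrays on probe set 1423859_a_at (adjusted p 0.00059, limma). The latter lay under the floor of 4 except on replicate 5 (4.403), so no exact fold is given. On its other probe set, 1423860_at, it lay at 4.87 to 6.97 and 3.92 to 4.35, a difference of −1.80 that did not pass over all probe sets (adjusted p 0.089). On both probe sets all 5 Ptgds-/- arrays lay below all 4 wild type arrays. The mean of 8 sympathetic neuron markers was 10.93 on wild type replicate 3 and 9.18 on Ptgds-/- replicate 1, against 5.09 to 7.63 elsewhere. The mean of 7 skeletal muscle markers was 9.07 on Ptgds-/- replicate 3 and 4.14 to 4.68 elsewhere.

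None of the matricellular genes passed the test between genotypes: 0 of 9 genes reached an adjusted p of 0.05 in limma, where 0.0559% of all 14321 tested genes did (8 genes). Thbs1 alone had an unadjusted p under 0.05, 1 of 9 against 19.9% of all genes for either direction and 7.12% for genes lower in Ptgds-/- aortas. The groups did not overlap for 0 of the 9 genes, against 6.76% of all genes. Of the 9, 6 were lower in Ptgds-/- aortas, where 43.3% of all genes were lower, and the median difference was −0.06 on the log2 scale beside 0.03 over all genes. Over probe sets the picture was alike. Of the 18 tested, 0 passed (0.0792% of 26504 probe sets did), 1 had an unadjusted p under 0.05 (18.9%), 0 had groups that did not overlap (6.42%), and 14 were lower (47.3%).

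**Figure D1:**
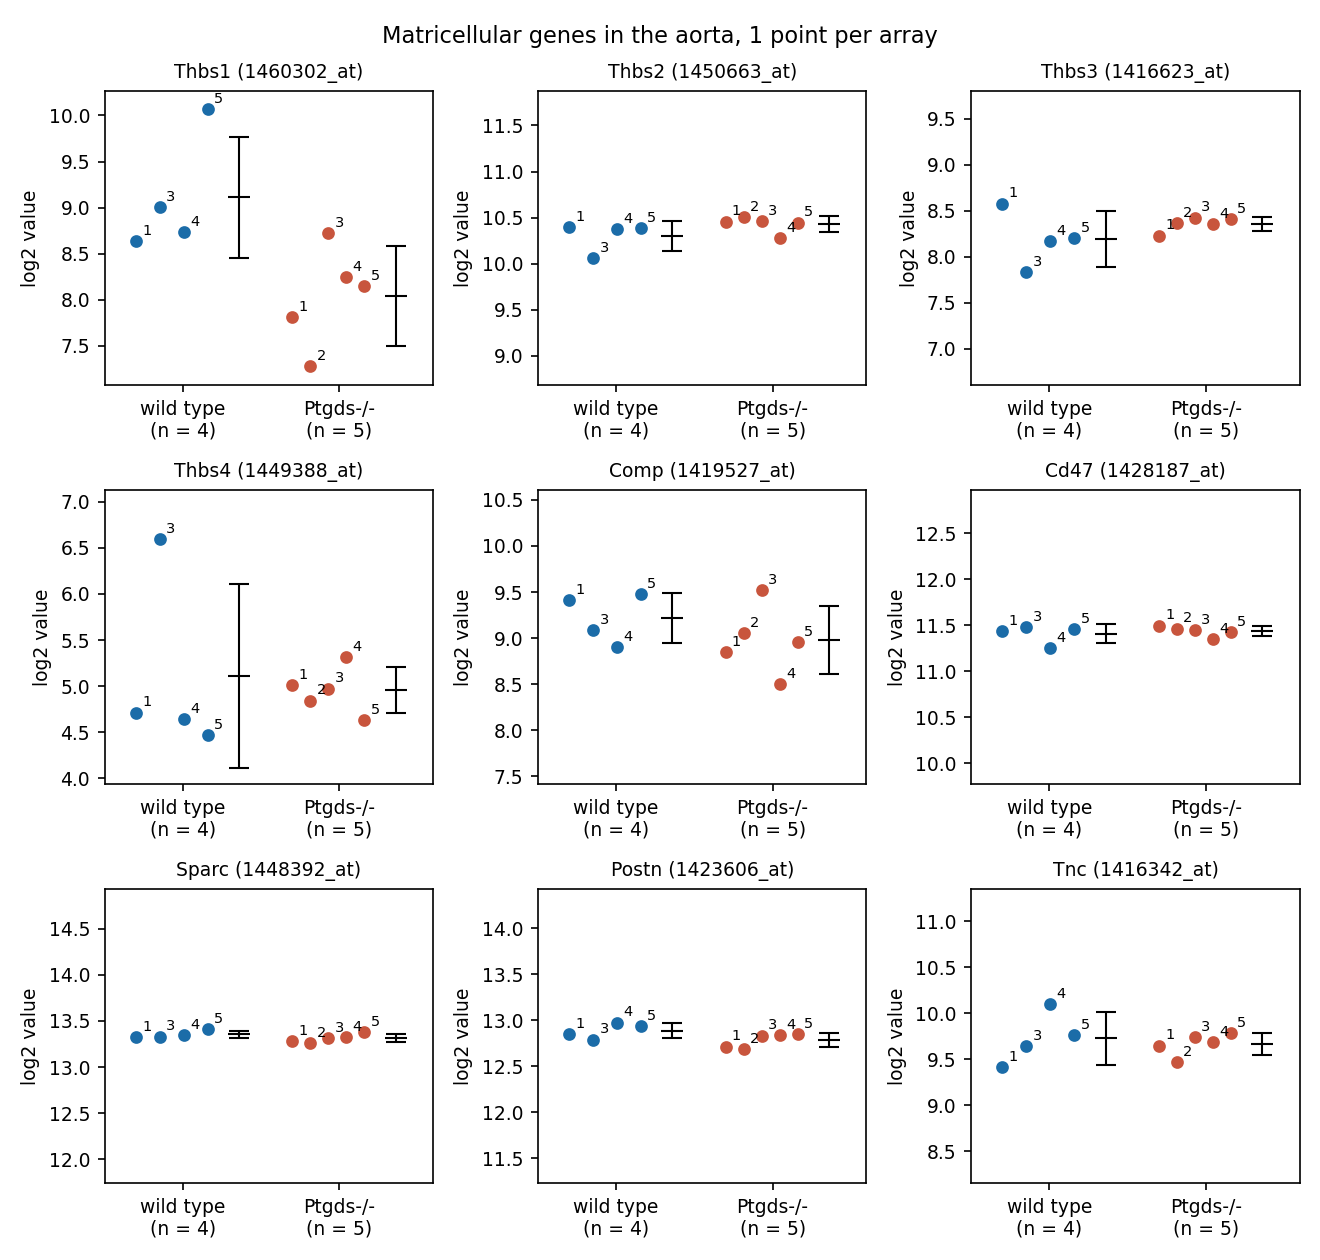
Log2 value (vertical axis, all panels spanning the same range) of the representing probe set of each of the 9 genes on the 4 wild type arrays (blue) and the 5 Ptgds-/- arrays (red), numbered by replicate, with bars for the group mean and SD. Thbs1 shows the widest gap between the group means, Thbs4 has 1 high wild type array, and Sparc, Postn and Cd47 hardly vary.

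Thbs1 had the largest difference of the set, and in the direction of less transcript in Ptgds-/- aortas. Its probe set 1460302_at gave log2 values of 8.64, 9.002, 8.73 and 10.07 on the wild type arrays (replicates 1, 3, 4 and 5, in that order here and throughout). On the Ptgds-/- arrays, replicates 1 to 5, it gave 7.81, 7.28, 8.73, 8.24 and 8.15. Wild type replicate 5 stood highest and Ptgds-/- replicate 2 lowest, and the groups overlapped only through Ptgds-/- replicate 3, which lay level with wild type replicates 1 and 4. The group means were 9.11 ± 0.66 (SD, n = 4) and 8.04 ± 0.54 (SD, n = 5). The difference was −1.07 (SE 0.35, 95% confidence interval −1.86 to −0.28), or 2.10-fold lower, and its adjusted p was 0.164 (limma). A difference of over 1 in size was found for 0.845% of all tested genes. The exact two-sided permutation p was 0.024, where 0.0079 is the smallest that 4 against 5 arrays allow. In bulk aorta, fewer cells that make a transcript and less transcript per cell cannot be told apart.

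Other probe sets that report on Thbs1 ran the same way but carry less weight. Probe set 1450377_at stayed under the floor on 8 of 9 arrays and was not tested; its 1 value above the floor was 5.47 on wild type replicate 5, the same array that was highest on the tested probe set. A further probe set, 1421811_at, is annotated to both Pald1 and Thbs1 and was therefore not counted as a member. It gave 10.85, 11.39, 11.08 and 12.04 on the wild type arrays and 10.12, 9.84, 10.94, 10.67 and 10.64 on the Ptgds-/- arrays. Its highest and lowest arrays were again wild type replicate 5 and Ptgds-/- replicate 2, and its means differed by −0.90 with an exact permutation p of 0.024.

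Wild type replicate 5 set part of the size of the Thbs1 difference. Without it the difference was −0.75 (adjusted p 0.349, limma), and over the other arrays left out in turn it ran from −1.24 without Ptgds-/- replicate 3 to −0.88 without Ptgds-/- replicate 2. Adjusted for the mean of the adipocyte markers it was −0.90 (adjusted p 0.411). Thrombospondin-1 is also a major platelet protein, so platelet markers were read beside it. Of 7 platelet markers on the array, Gp5 and Gp6 lay under the floor on all 9 arrays and the other 5 (Pf4, Ppbp, Gp1bb, Gp9 and Itga2b) over it on all 9. Of those 5, 4 were higher in Ptgds-/- aortas, where 43.3% of all genes were lower, and 0 passed. Ppbp, a platelet chemokine gene, had the largest difference, 1.25 (SE 0.65, adjusted p 0.315, limma). The other higher genes differed by 0.03 (Gp9), 0.10 (Gp1bb) and 0.15 (Itga2b). The mean of the 7 platelet markers on the array was 5.90 to 6.14 in wild type and 5.85 to 6.45 in Ptgds-/- aortas, and on wild type replicate 5 it was 5.90. Pf4, the 1 lower in Ptgds-/- aortas and a gene that macrophages also express, was highest on wild type replicate 5, at 10.12 against 8.96 to 9.70 elsewhere. That array also had the highest means of the macrophage (10.00), endothelial (9.38) and adventitial fibroblast markers (12.44). The part of platelets or of any of these cells in the Thbs1 values was not tested.

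The genes whose profiles over the 9 arrays lay closest to that of Thbs1 were Adamtsl2, Gprc5a and Sphk1. Likeness was measured as the root mean square difference between log2 profiles, each centred on its own mean, and came to 0.34 for Adamtsl2, which encodes a secreted glycoprotein of the ADAMTS-like family. It was 0.36 for Gprc5a, an orphan receptor gene induced by retinoic acid, and 0.37 for Sphk1, the kinase that makes sphingosine 1-phosphate. All of them were highest on wild type replicate 5, as Thbs1 was. Their own differences were −1.15 (SE 0.29, adjusted p 0.132) for Adamtsl2, −1.40 (SE 0.27, adjusted p 0.097) for Gprc5a and −0.91 (SE 0.26, adjusted p 0.145) for Sphk1 in limma, so none of the 3 passed. A like sign and a like peak follow from how they were chosen.

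**Figure D2:**
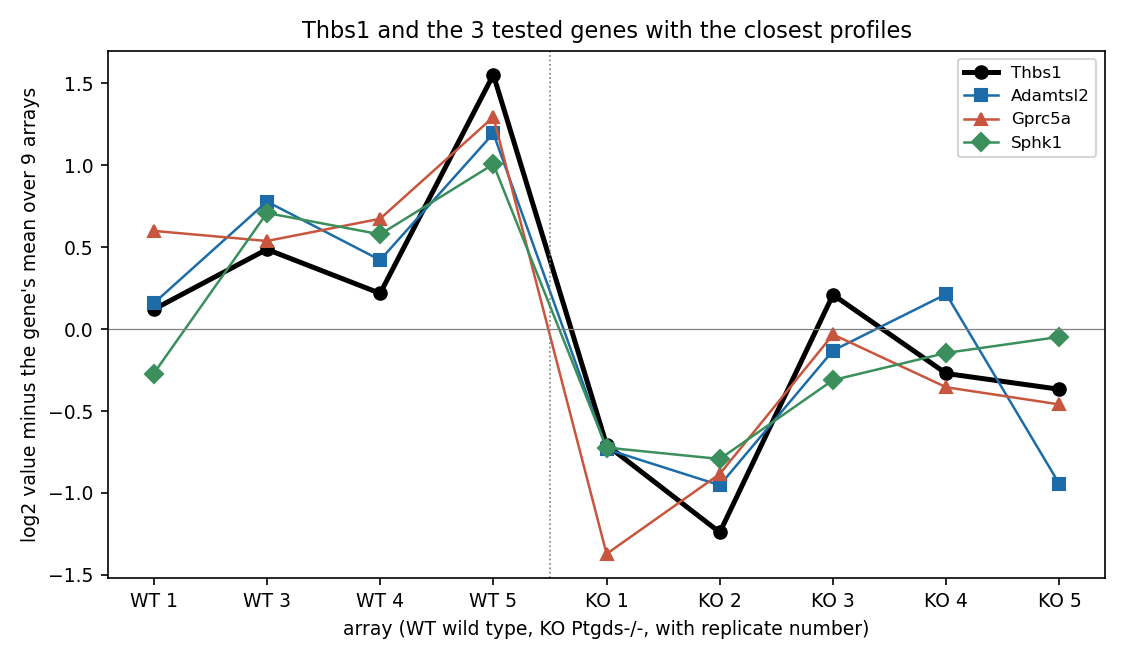
Log2 value of Thbs1 and of the 3 tested genes with the closest profiles, each minus its own mean over the 9 arrays (vertical axis), by array (horizontal axis; WT wild type, KO Ptgds-/-, with the replicate number). All 4 lines peak at wild type replicate 5 and lie mostly below their means on the Ptgds-/- arrays.

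Thbs2, the other trimeric thrombospondin, did not pass the test and stood within a narrow range. Probe set 1450663_at gave 10.40, 10.06, 10.37 and 10.38 on the wild type arrays and 10.46, 10.50, 10.46, 10.28 and 10.44 on the Ptgds-/- arrays. Wild type replicate 3 was the lowest, and the others lay within 0.22 of each other. The difference was 0.13 (SE 0.08, 95% confidence interval −0.06 to 0.32, adjusted p 0.428, limma). The remaining probe sets of Thbs2 differed by 0.12 (1447862_x_at) and −0.0037 (1422571_at), with adjusted p-values of 0.577 and 0.989 over all probe sets. Leaving out wild type replicate 3 gave 0.046. Whether the response of Thbs2 differs from that of Thbs1 was not tested.

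Among the pentameric thrombospondins, Thbs3 was the steadiest in Ptgds-/- aortas. It is expressed in many tissues and takes part in skeletal maturation in mice. Its values were 8.58, 7.83, 8.17 and 8.20 in wild type and 8.23, 8.36, 8.42, 8.35 and 8.41 in Ptgds-/- aortas, so the Ptgds-/- arrays fell inside the wild type range. The difference was 0.16 (SE 0.13, 95% confidence interval −0.13 to 0.45, adjusted p 0.514, limma). Leaving out wild type replicate 1 gave 0.29 and leaving out replicate 3 gave 0.04, so its size rested on those arrays.

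Thbs4, which is made in tendon, muscle and parts of the nervous system, was low except on 1 array. It gave 4.71, 6.60, 4.64 and 4.47 in wild type aortas and 5.01, 4.84, 4.97, 5.31 and 4.63 in Ptgds-/- aortas. Wild type replicate 3 thus stood 1.28 above every other array, and the rest lay within 0.84 of each other just over the floor. The difference was −0.15 (SE 0.40, 95% confidence interval −1.06 to 0.76, adjusted p 0.865, limma), and it turned to 0.35 (adjusted p 0.307) without wild type replicate 3. With any other array left out it ran from −0.36 (wild type replicate 5) to −0.071 (Ptgds-/- replicate 5). The direction of Thbs4 is therefore not set by these arrays.

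Wild type replicate 3 was also the array with the most neuronal transcripts. Th and Dbh, the enzyme genes of catecholamine synthesis, stood there at 11.28 and 11.57, and the mean of 5 Schwann cell markers was 10.91, against 9.24 to 10.37 on the other arrays. On Ptgds-/- replicate 1, the array with the next highest Th (9.18) and Dbh (9.31), Thbs4 was 5.01, inside the range of the remaining arrays. The gene closest to Thbs4 in profile was Sncg, the gamma-synuclein gene, with a root mean square difference of 0.13 over 9 arrays. Sncg stood at 9.59 on wild type replicate 3 and at 7.33 to 7.96 on the others, with 7.96 on Ptgds-/- replicate 1. Next in closeness of profile came Mx1, an interferon-induced GTPase gene, with a root mean square difference of 0.20, and Sarm1, an axon degeneration gene, with 0.23. Each of these 3 genes was highest on wild type replicate 3, and none passed the test (adjusted p 0.746 to 0.895, limma). Such a shared peak follows from how they were chosen, as does a difference like that of Thbs4. The part of neuronal RNA in the Thbs4 value was not tested.

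**Figure D3:**
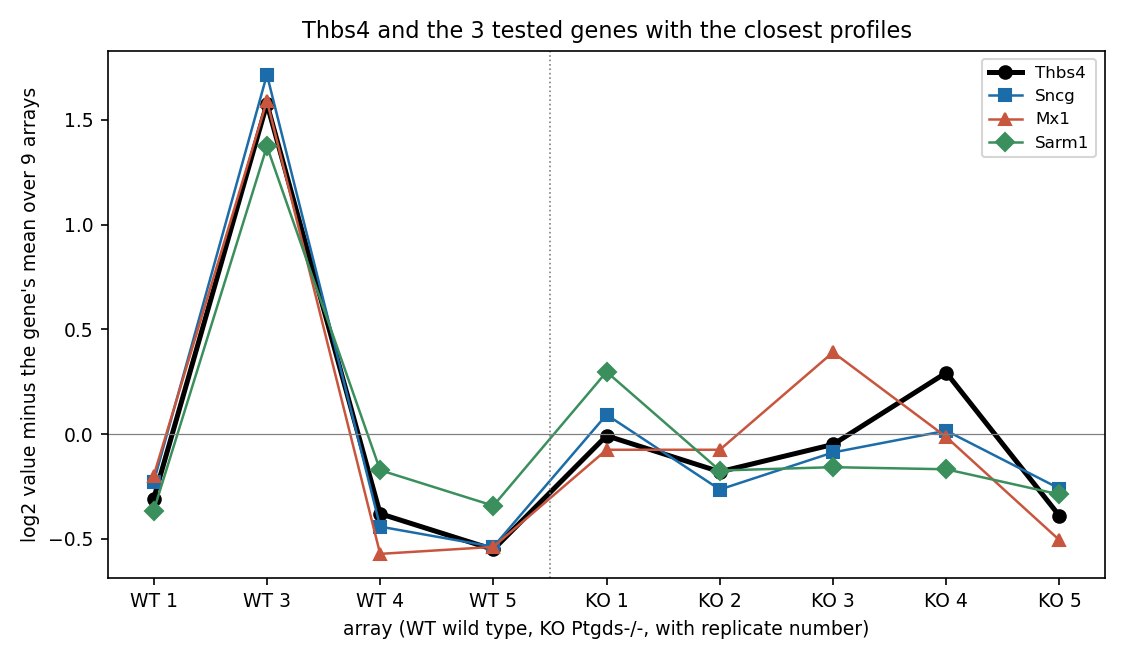
Log2 value of Thbs4 and of the 3 tested genes with the closest profiles, each minus its own mean over the 9 arrays (vertical axis), by array (horizontal axis; WT wild type, KO Ptgds-/-, with the replicate number). All 4 lines peak on wild type replicate 3, where Thbs4 read 6.60, and stay near or below their means on most other arrays.

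Comp, the fifth thrombospondin, varied from array to array within both genotypes. It gave 9.41, 9.09, 8.90 and 9.48 in wild type and 8.85, 9.05, 9.52, 8.50 and 8.95 in Ptgds-/- aortas. The highest and the lowest arrays were both Ptgds-/-, replicates 3 and 4, so the groups overlapped throughout. The difference was −0.24 (SE 0.20, 95% confidence interval −0.69 to 0.21, adjusted p 0.524, limma). It lay at −0.12 without Ptgds-/- replicate 4, at −0.16 without wild type replicate 5 and at −0.38 without Ptgds-/- replicate 3.

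Markers of adventitial fibroblasts were high on the arrays where Comp was highest. The mean of 9 adventitial fibroblast markers was highest on wild type replicate 5 (12.44) and Ptgds-/- replicate 3 (12.28), the arrays with the highest Comp. It was lowest on wild type replicate 4 (11.87) and Ptgds-/- replicate 4 (11.94). The mean of 10 cartilage and tendon markers followed Comp less closely. It was highest on wild type replicate 5 (5.93), then on Ptgds-/- replicate 5 (5.78), where Comp was 8.95, and Ptgds-/- replicate 3 (5.75). It was lowest on Ptgds-/- replicate 2 (5.31), where Comp was 9.05, and lay at 5.43 on Ptgds-/- replicate 4. Single genes of that list peaked on different arrays. Col2a1, the collagen gene that defines cartilage, lay between 3.89 and 4.36 on all arrays, at the floor. Of 9 tested cartilage and tendon markers 7 were lower in Ptgds-/- aortas, where 43.3% of all genes were, and 0 passed. Sox9 alone had an unadjusted p under 0.05 (limma), where 19.9% of all genes did in either direction and 7.12% were lower. The part of these cells in the Comp values was not tested.

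Cd47 encodes a membrane protein that serves as the receptor of thrombospondin-1 and, through SIRP-alpha, marks cells against phagocytosis. Its brightest probe set, 1428187_at, gave 11.44, 11.48, 11.25 and 11.46 in wild type and 11.50, 11.46, 11.45, 11.35 and 11.42 in Ptgds-/- aortas. Apart from wild type replicate 4 the arrays lay within 0.15 of each other. The difference was 0.03 (SE 0.06, 95% confidence interval −0.11 to 0.17, adjusted p 0.821, limma), and with 1 array left out it ran from −0.022 (wild type replicate 4) to 0.053 (wild type replicate 3).

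The other Cd47 probe sets did not share that sign. They differed by −0.05 (1419554_at), −0.15 (1449507_a_at), −0.20 (1459908_at) and −0.29 (1430997_at, at a mean level near 5), with adjusted p-values of 0.310 to 0.847 over all probe sets. The lowest exact permutation p among them was 0.040, for 1449507_a_at, which gave 10.29, 10.40, 10.24 and 10.53 in wild type and 10.18, 10.24, 10.24, 10.28 and 10.15 in Ptgds-/- aortas. Those groups overlapped at their margins. On 1459908_at and 1430997_at wild type replicate 1 was the highest array, at 9.08 and 5.80, and it pulled both wild type means upward.

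**Figure D4:**
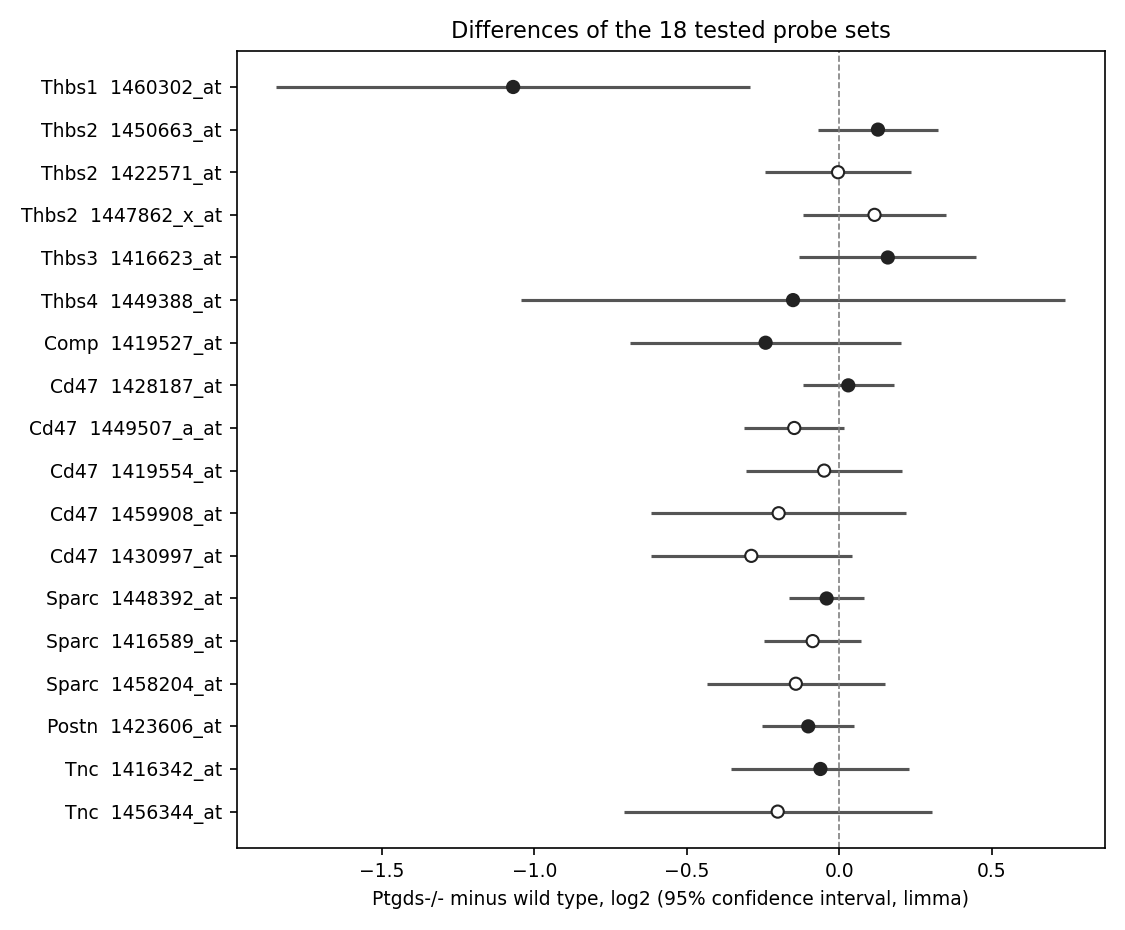
Difference between Ptgds-/- and wild type means (horizontal axis, log2) with its 95% confidence interval (line, limma across all probe sets) for each of the 18 tested probe sets; filled points represent their gene in the gene-level test. Only the interval of Thbs1 lies wholly on 1 side of 0, and 4 of the 5 Cd47 probe sets lie below 0 while the brightest lies above.

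Sparc, Postn and Tnc are matricellular genes outside the thrombospondin family. Sparc encodes osteonectin, a collagen-binding glycoprotein, and its brightest probe set (1448392_at) gave 13.32, 13.33, 13.35 and 13.41 in wild type and 13.28, 13.26, 13.32, 13.33 and 13.38 in Ptgds-/- aortas. It was the least variable gene of the set: only 1.84% of tested genes had a smaller SD over the 9 arrays. The difference was −0.04 (SE 0.05, 95% confidence interval −0.15 to 0.07, adjusted p 0.665, limma), and −0.021 with wild type replicate 5 left out. A second bright probe set differed by −0.09 and a dim one by −0.14, with adjusted p-values of 0.537 and 0.582 over all probe sets.

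Postn encodes periostin, a matrix protein of fibroblasts and of remodelling vessels. It gave 12.85, 12.79, 12.97 and 12.93 in wild type and 12.71, 12.69, 12.83, 12.84 and 12.85 in Ptgds-/- aortas. Ptgds-/- replicates 1 and 2 were the lowest of all arrays and the other 3 lay among the wild type values. The difference was −0.10 (SE 0.06, 95% confidence interval −0.24 to 0.04, adjusted p 0.397, limma).

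Tnc encodes tenascin-C, a large matrix glycoprotein that is low in most resting adult tissue. Its brightest probe set (1416342_at) gave 9.41, 9.64, 10.10 and 9.76 in wild type and 9.65, 9.47, 9.74, 9.68 and 9.78 in Ptgds-/- aortas. Wild type arrays held both the highest and the lowest value, replicates 4 and 1. The difference was −0.06 (SE 0.13, 95% confidence interval −0.35 to 0.23, adjusted p 0.821, limma) and turned to 0.06 without wild type replicate 4. Leaving out wild type replicate 1 gave −0.17 and leaving out Ptgds-/- replicate 2 gave −0.013. The other probe set, 1456344_at, ranked the same wild type array highest, at 10.04, and differed by −0.20 (adjusted p 0.657 over all probe sets).

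The genes differed widely in how much they varied within a genotype. The pooled within-group SD was 0.59 for Thbs1 and 0.68 for Thbs4, and 0.04 for Sparc, 0.08 for Cd47 and 0.08 for Postn. By SD over all arrays Thbs1 lay above 97.6% of tested genes and Thbs4 above 96.3%, while Cd47 lay above 10.1%. A difference the size of that of Postn could therefore not be told from replicate spread for Thbs1 or Thbs4.

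**Figure D5:**
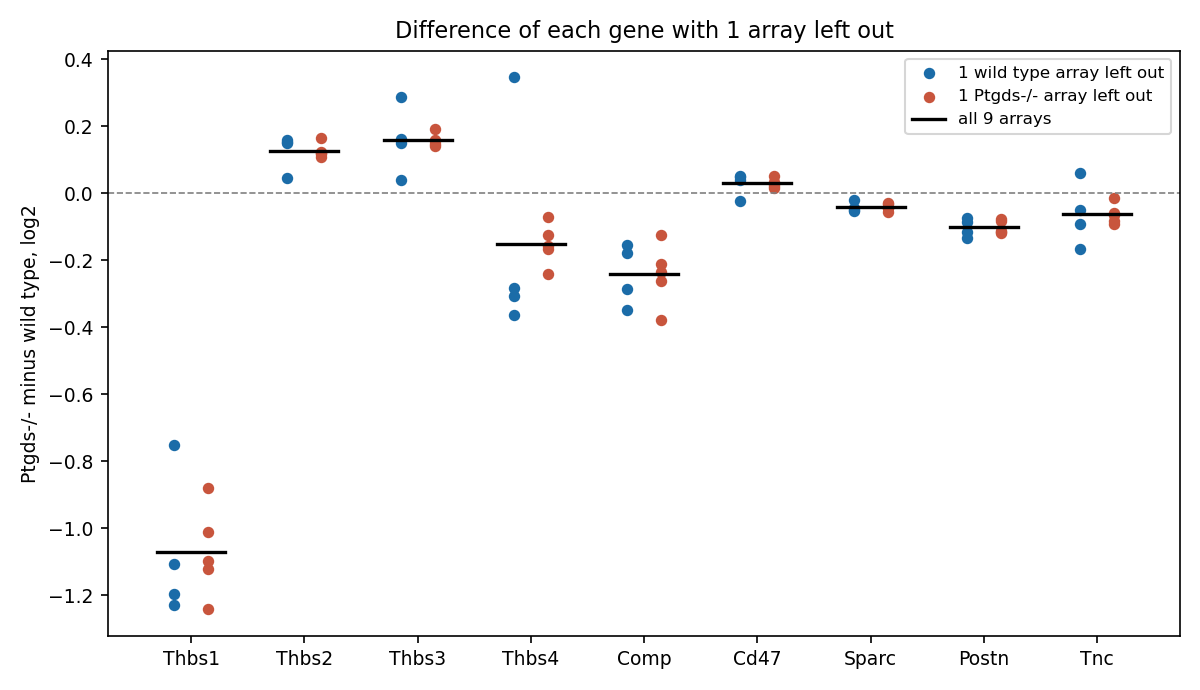
Difference between Ptgds-/- and wild type means (vertical axis, log2) for each gene with all 9 arrays (black line) and with each array left out in turn (blue points, 1 wild type array left out; red points, 1 Ptgds-/- array left out). Thbs1 stays between −1.24 and −0.75, whereas Thbs4, Cd47 and Tnc cross 0 when 1 wild type array is removed.

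The receptors and binding partners of these proteins showed no joint direction. Of 17 tested, 8 were higher and 9 lower, 0 passed, 3 had an unadjusted p under 0.05, close to the 19.9% of all genes, and the median difference was −0.0087 beside 0.03 over all genes. Itgb3, the integrin beta-3 subunit that binds osteopontin and thrombospondins, stood at 0.45 (SE 0.12, adjusted p 0.134, limma), or 1.37-fold. Itgb5, the beta-5 integrin subunit, gave 11.51 to 11.91 in wild type and 11.95 to 12.10 in Ptgds-/- aortas, a difference of 0.23 (SE 0.09, adjusted p 0.206). It was the only 1 of the 17 whose groups did not overlap, against 6.76% of all genes. Sdc4, a heparan sulphate proteoglycan of the cell surface, stood at −0.25 (SE 0.09, adjusted p 0.179). Cd36, the thrombospondin-1 receptor that is abundant in adipocytes, stood at −0.17 (adjusted p 0.256) and Sirpa, the partner of CD47, at −0.17 (adjusted p 0.533). Adipocyte markers stood lower in 6 of 6 genes, with 0 passing and array means of 10.84 to 11.37 in wild type and 10.19 to 11.23 in Ptgds-/- aortas; their part in the Cd36 value was not tested.

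Further matricellular genes likewise yielded no call. Of 22 such genes 19 were tested; 8 were higher and 11 lower, 0 passed and 2 had an unadjusted p under 0.05 (19.9% of all genes), with a median of −0.02. Lgals3, which encodes galectin-3, had the smallest p: it gave 9.71, 9.96, 9.67 and 10.11 in wild type and 9.26, 9.39, 9.39, 9.58 and 9.44 in Ptgds-/- aortas. All Ptgds-/- arrays lay below all wild type arrays, and the difference was −0.45 (SE 0.10, adjusted p 0.116, limma), or 1.37-fold lower. Groups did not overlap for 2 of the 19 genes, against 6.76% of all genes. The other was Lgals1, the galectin-1 gene, which was higher by 0.05 (adjusted p 0.536, limma). Galectin-3 is abundant in macrophages, whose markers stood lower in 8 of 8 genes, with 0 passing and array means of 8.90 to 10.00 in wild type and 9.05 to 9.38 in Ptgds-/- aortas; their part in the Lgals3 value was not tested. Ccn2, the connective tissue growth factor gene, stood at −0.19 (SE 0.07, adjusted p 0.187), and Tnn, the tenascin-N gene, at 0.27 (SE 0.12, adjusted p 0.264) at a level near the floor.

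Genes of TGF-beta activation and response, which thrombospondin-1 can set in motion, were split evenly. Of 14 tested 7 were higher and 7 lower, 0 passed and 4 had an unadjusted p under 0.05 (19.9% of all genes), with a median of −0.0076. Tgfbr1, the type I receptor gene, stood at −0.24 (SE 0.08, adjusted p 0.152), the ligand gene Tgfb2 at −0.38 (SE 0.13, adjusted p 0.168) and the feedback inhibitor gene Smad7 at −0.31 (SE 0.12, adjusted p 0.200, limma). Of the 4, 1 was higher: Smad3, at 0.24 (SE 0.10, adjusted p 0.215, limma). Tgfb1 itself stood at −0.13 (adjusted p 0.601).

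Signalling by thrombospondin-1 through CD47 is known to restrain nitric oxide and cyclic GMP in vascular cells. Of 6 genes of that route 4 were higher and 2 lower, 0 passed and 4 had an unadjusted p under 0.05, where 19.9% of all genes did. The groups did not overlap for 2 of the 6, each higher in Ptgds-/- aortas, against 6.76% of all genes. The soluble guanylate cyclase subunit genes Gucy1a1 and Gucy1b1 stood at 0.39 (adjusted p 0.110) and 0.19 (adjusted p 0.201), and Nos3, the endothelial nitric oxide synthase gene, at −0.45 (adjusted p 0.228, limma). Nos3 is an endothelial gene, and 7 of 8 endothelial markers also stood lower, with 0 passing. Their array means were 8.86 to 9.38 in wild type and 8.78 to 9.07 in Ptgds-/- aortas. Of these markers 3 had an unadjusted p under 0.05 (Cdh5, Tie1 and Emcn, limma), all lower, where 7.12% of all genes were lower at that p. Soluble guanylate cyclase is abundant in smooth muscle, and 7 of 8 smooth muscle markers stood higher, with 0 passing. Their array means were 12.28 to 12.48 in wild type and 12.38 to 12.57 in Ptgds-/- aortas. Of them 4 had an unadjusted p under 0.05 (Tagln, Smtn, Myl9 and Lmod1, limma), all higher. Of all genes 19.9% had such a p in either direction, and 7.12% had it and were lower. The part of either cell type was not tested.

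Thbs1 is itself an early response gene in serum-stimulated cells, and injury and serum response genes were read beside it. Of 18 tested 17 were lower in Ptgds-/- aortas, where 43.3% of all genes were, and 1 higher, with a median of −0.15. Of them 0 passed, and 3 had an unadjusted p under 0.05 (limma), where 19.9% of all genes did in either direction. All 3 were lower in Ptgds-/- aortas, where 7.12% of all genes were lower at that p. Myc stood at −1.04 (SE 0.31, adjusted p 0.147), Hbegf, a growth factor gene, at −0.64 (SE 0.19, adjusted p 0.149) and Fosb at −1.08 (SE 0.44, adjusted p 0.222, limma). The mean of the list was 9.41, 10.20, 10.11 and 10.32 on the wild type arrays and 9.49, 9.56, 9.89, 9.77 and 9.99 on the Ptgds-/- arrays. Wild type replicate 5 was highest for the list as for Thbs1. Wild type replicate 1 was the lowest array of the list, and its Thbs1 value lay above 4 of the 5 Ptgds-/- arrays. The part of such a response in the Thbs1 values was not tested.

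Thbs1 and Ptgds lie on the same chromosome, with 456 tested genes between them when genes are ordered as in GRCm38.p6. The other genes of the set lie on other chromosomes.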

How the data were processed

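Aorta RNA from 10 mouse samples (5 wild type, 5 Ptgds-/-) was profiled on arrays of 45101 probe sets; 9 arrays hold values. The authors deposited log2 values made with GCRMA (version not stated), per the submitters' processing notes; that the scale is log2 was inferred from the values. Precision is limited by how many arrays there are. Of the probe sets, 34945 carry 1 gene symbol and 932 several in the platform annotation; the others are unnamed here. Probe sets with a log2 value over 4 on at least 4 arrays were tested (26504 probe sets, 14321 genes) with limma 3.58.1 in R 4.3.3 (lmFit, eBayes, no covariate) and Benjamini-Hochberg adjustment at 0.05. Exact permutation used all 126 splits. Named genes were all members, the 3 smallest p-values of each related list, and the 3 genes closest in profile to each member with an SD over 0.4. Cd36, Sirpa, Lgals1, Smad3, Tgfb1 and single marker genes were added after their values were seen. The members and lists were chosen with earlier results of these data known. The labels call samples biological replicates.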

Additional observations from a re-analysis of the deposited data

Results flagged for a closer look

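Of 38 combinations of a probe set and a genotype, 7 had 1 array that stood apart from its group by Dixon's criterion at the 95% level, which chance gives in about 1 of 20 groups; several of these combinations share a gene or an array. Wild type replicate 3 stood apart for Thbs4 (6.60, the other wild type arrays at 4.47 to 4.71) and for Thbs2 on 1450663_at (10.06, others 10.37 to 10.40). Wild type replicate 5 stood apart for the untested Thbs1 probe set 1450377_at (5.47, others 3.81 to 3.86), with the other arrays under the floor. Wild type replicate 4 stood apart for Cd47 on 1428187_at (11.25, others 11.44 to 11.48) and for the dim Sparc probe set 1458204_at (5.55, others 5.10 to 5.13). Wild type replicate 1 stood apart for Cd47 on 1430997_at (5.80, others 5.18 to 5.25). The only Ptgds-/- array to do so was replicate 4, for Thbs2 on 1450663_at (10.28, others 10.44 to 10.50).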

How the results depend on the processing

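The count of matricellular genes past the threshold was 0 in all 19 alternative settings, and that of their probe sets 0 in all 17 run. Over the same settings the count of all genes past it moved from 8 to 19 with a floor of 6, 33 with trend and robust options, 155 with array weights and 3 without the 2 arrays richest in sympathetic neuron markers (an alternative chosen after seeing the data); with 1 array left out it ran from 2 to 1051: 1051 without wild type replicate 1, 16 without Ptgds-/- replicate 4, and 2 to 4 without any of the other arrays. Of 188 differences of single genes under alternatives, 181 kept their direction, but some of the 188 repeat the main difference and could not turn. These are the differences under exact permutation, no filter on low values, the floor of 6, and the trend and robust options. Genes with 1 tested probe set also keep theirs under the mean or the most variable probe set. Thbs4 turned to 0.12 with array weights, 0.35 without wild type replicate 3 and 0.33 without the 2 neuron-rich arrays; Cd47 to −0.13 as the mean of its probe sets, −0.20 on its most variable probe set and −0.022 without wild type replicate 4 (with 1 array left out it ran from −0.022 to 0.053); Tnc to 0.062 without wild type replicate 4 (range −0.17 to 0.062). Thbs4 could not be tested with a floor of 6. Thbs1 stayed between −1.25 and −0.75, with adjusted p-values of 0.090 to 0.411 (limma). The median of the set ran from −0.15 to −0.03. With the replicate number as a block, Thbs1 differed by −1.06 (adjusted p 0.153) and 0 members passed; deviations of same-numbered arrays correlated at −0.36 to 0.21 across genes, so the numbers are not treated as pairs. Beyond those turns, the causes of which were not tested, dim probe sets near the floor limit Thbs4, Tnn and 1450377_at.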
